A study of Mus musculus with 203 samples.

Results

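The KDM1A CoREST complex is a corepressor assembly in which the histone demethylase KDM1A works beside a pair of histone deacetylases. All 9 genes chosen as its subunits, Kdm1a, Rcor1, Rcor3, Hdac1, Hdac2, Hmg20b, Phf21a, Zmym2 and Zmym3, were found by gene symbol among the 25094 genes of the RAW cell RNA-seq table. The same 9 were found among the 16478 genes of the table on bone marrow-derived macrophages (BMDMs), which holds comparisons between groups and no values per library, so the expression of the subunits in BMDMs was not analysed here. RAW cells are the mouse macrophage line RAW264.7. The 16 libraries formed 4 groups of 4, from cells carrying a lentiviral hairpin against GFP (shGFP, the control) or against Kdm1a (shKDM1A), each without treatment or with 20 ng/ml of interleukin 4 (IL4) for 6 h. Both were stable lines made by puromycin selection, so the control cells carry a hairpin and the selection too, and a single hairpin stands for KDM1A depletion. Effects of the depletion cannot be told apart from other differences between the lines. The comparisons ask how far KDM1A depletion and IL4, which drives alternative macrophage activation, moved the mRNA of the enzyme and of the proteins it works with.

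KDM1A (also known as LSD1) is a flavin-dependent enzyme that removes methyl groups from histone tails. In CoREST it is held by the scaffold proteins RCOR1 or RCOR3, which link it to nucleosomes and to the deacetylases HDAC1 and HDAC2, so that one assembly can erase both methyl and acetyl groups. HMG20B is a DNA-bending HMG box protein, PHF21A a reader of unmethylated histone H3, and ZMYM2 and ZMYM3 are zinc finger proteins of the MYM type that associate with the complex. HDAC1 and HDAC2 are also shared with the NuRD and Sin3 corepressors. The complex is best known for keeping neuronal genes off outside neurons, where the factor REST recruits it, and in blood cells GFI1 and GFI1B recruit it.

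Depth was 17554721 to 27782568 tags per library. The values are logarithms to base 2, comparable between libraries and moderated for low expression, and every level and difference below is on that scale unless given as a percentage. Median absolute differences between libraries of the same group were 0.036 to 0.056 over the 12905 genes that reached 1 in 4 or more libraries, all 9 subunits among them. Of 10 macrophage markers, 9 passed that filter and Mertk did not. The summed macrophage marker level was 17.66 to 17.71 in shGFP cells, 17.34 to 17.37 in shGFP cells with IL4, 17.86 to 17.89 in shKDM1A cells and 17.76 to 17.86 in shKDM1A cells with IL4. The markers were added on the linear scale, so Lyz2 (16.35 to 17.18), the highest of them, weighs most in the sum. A low marker such as Adgre1 (9.79 to 11.22) adds little. The part of the marker level in the differences below was not tested. Of the 18 markers of T cells, B cells, neutrophils, fibroblasts and epithelium, S100a8 alone passed (1.21 to 1.26), and the others were at 0 or below.

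Per kilobase of transcript, the subunits fell into an upper and a lower tier in shGFP cells. Hdac2 was highest (10.53), followed by Hdac1 (9.95), Kdm1a (9.57), Hmg20b (9.31) and Rcor1 (8.31). Their levels lay between percentiles 90.5 and 61.6 of all tested genes. Zmym2 (6.97), Zmym3 (6.43), Rcor3 (6.21) and Phf21a (6.11) lay between percentiles 40.2 and 30.5. Of the neighbours in this order, Rcor3 and Phf21a alone had overlapping libraries, 0.095 apart in mean. Of the scaffold genes, Rcor1 was 4.30 times as abundant as Rcor3 per length, and of the deacetylase genes, Hdac1 stood at 0.672 of Hdac2. In shKDM1A cells Kdm1a stood below Hmg20b, at 8.69 against 9.40 without IL4 and 8.71 against 9.44 with IL4. The plot of levels per transcript length shows that no other pair of subunits changed places in mean level between the groups.

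**Figure D1:**
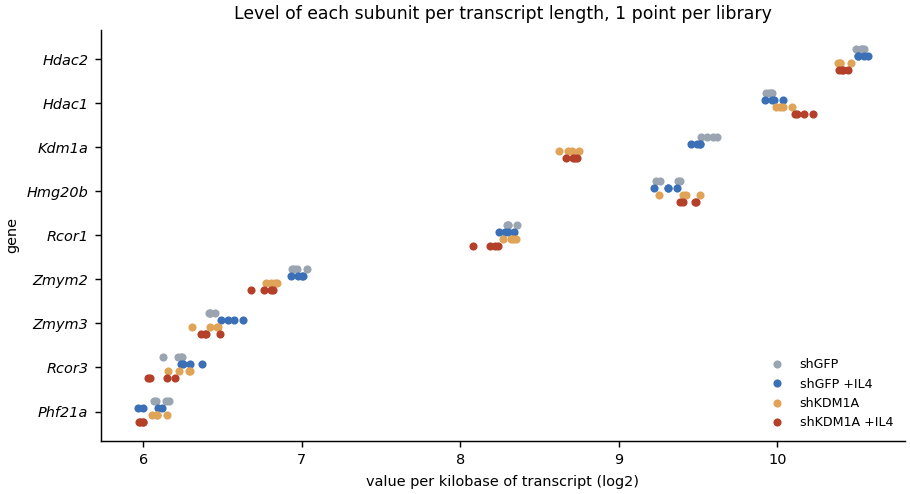
Value per kilobase of transcript (log2, horizontal axis) of each CoREST subunit (rows), 1 point per library, coloured by group. Hdac2 and Hdac1 are highest, Zmym2, Zmym3, Rcor3 and Phf21a lowest, and Kdm1a drops from 9.57 in shGFP cells to 8.69 in shKDM1A cells.

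Kdm1a, the gene for the demethylase itself, is on chromosome 4 (NM_001347221, chr4:136106448-136158638, minus strand, mm9). Its values were 11.21, 11.23, 11.13 and 11.17 in shGFP cells and 10.36, 10.32, 10.23 and 10.29 in shKDM1A cells. With IL4 they were 11.12, 11.10, 11.12 and 11.07 in shGFP cells and 10.32, 10.33, 10.34 and 10.28 in shKDM1A cells. Every library labelled shKDM1A was below every library labelled shGFP. Kdm1a fell by 0.88 (SE 0.028, n = 4 against 4, limma adjusted p = 5.6e-13) without IL4 and by 0.79 (SE 0.028, limma adjusted p = 2.2e-12) with IL4. As a percentage, it fell by 45.8% without IL4 and fell by 42.0% with IL4. In bulk RNA, fewer cells with a transcript and less of it per cell cannot be told apart. The differences were larger than those of 99.4% and 99.2% of tested genes.

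Besides Kdm1a, 3 subunit genes passed the test (a limma adjusted p under 0.05, here named a call) without IL4, Zmym2 and Hdac2 lower and Hdac1 higher. With Kdm1a, the hairpin's target, whose decrease was set by the design, this is 4 of 9, beside 38.2% of all tested genes called in this comparison. Of the 9, 3 were lower, beside 18.4% of all genes, and 1 was higher, beside 19.7%. The median difference over the 9 subunits was -0.011, beside -0.003 over all genes. The bases directly upstream of the outermost annotated start (NCBIM37, the same assembly as mm9) are printed here for these 4 genes. These genes were chosen as the ones called without IL4, and a link between the bases and the calls was not tested. The bases run 5′ to 3′ on the strand of the gene, for Kdm1a chr4:136158639-136158888 (minus strand), for Hdac1 chr4:129219958-129220207 (minus strand), for Hdac2 chr10:36694100-36694349 (plus strand) and for Zmym2 chr14:57505240-57505489 (plus strand). Capitals mark matches to GGGCGG, the GC box bound by SP1, or to CCAAT, the box bound by NF-Y, on either strand.
Kdm1a: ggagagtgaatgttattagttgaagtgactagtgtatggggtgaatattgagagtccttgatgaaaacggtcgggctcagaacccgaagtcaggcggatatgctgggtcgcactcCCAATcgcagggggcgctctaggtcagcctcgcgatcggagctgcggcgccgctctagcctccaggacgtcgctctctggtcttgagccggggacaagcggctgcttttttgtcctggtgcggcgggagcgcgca
Hdac1: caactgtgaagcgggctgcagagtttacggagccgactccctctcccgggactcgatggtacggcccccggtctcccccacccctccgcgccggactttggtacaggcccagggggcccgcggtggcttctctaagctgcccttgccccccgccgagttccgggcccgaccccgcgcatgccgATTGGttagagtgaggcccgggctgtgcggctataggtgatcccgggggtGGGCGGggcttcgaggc
Hdac2: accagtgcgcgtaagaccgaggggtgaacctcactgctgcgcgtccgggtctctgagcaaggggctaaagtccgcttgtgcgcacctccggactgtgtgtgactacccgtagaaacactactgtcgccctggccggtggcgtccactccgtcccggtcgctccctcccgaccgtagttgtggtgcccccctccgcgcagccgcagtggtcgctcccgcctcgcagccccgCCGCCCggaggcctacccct
Zmym2: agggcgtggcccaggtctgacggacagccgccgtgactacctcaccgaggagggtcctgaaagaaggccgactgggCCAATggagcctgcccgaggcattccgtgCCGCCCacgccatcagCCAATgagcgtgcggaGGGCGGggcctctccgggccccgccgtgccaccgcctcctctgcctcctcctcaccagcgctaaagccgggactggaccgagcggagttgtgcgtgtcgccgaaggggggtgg
Across all 25010 windows of 250 bases, 38.3% held GGGCGG and 35.4% held CCAAT. Among the subunits, GGGCGG was found in 6 (Rcor1, Rcor3, Hdac1, Hdac2, Hmg20b and Zmym2) and CCAAT in 5 (Kdm1a, Rcor1, Hdac1, Hmg20b and Zmym2). The Kdm1a window holds a CCAAT match and no GGGCGG, the Hdac2 window a GGGCGG match and no CCAAT, and the Hdac1 and Zmym2 windows hold both. A form of the STAT6 site, TTC followed by 4 bases of any kind and by GAA, was in 5.8% of all windows and in none of the 9. The TATA box (TATAAA, in 12.1% of all windows) was in none of the 9 either, nor was a form of the site of ETS factors (CCGGAAG, in 7.8%). The windows of the 9 genes had a GC content of 50.0% (Zmym3) to 82.8% (Rcor3), with a median of 54.0% over all windows.

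The genes for the deacetylases differed in opposite directions between shKDM1A and shGFP cells. Hdac2 (NM_008229, chr10:36694350-36721694, plus strand) had values of 11.52, 11.52, 11.54 and 11.48 in shGFP cells and 11.38, 11.39, 11.39 and 11.46 in shKDM1A cells. With IL4 its values were 11.50, 11.56, 11.54 and 11.50 in shGFP cells and 11.44, 11.38, 11.40 and 11.41 in shKDM1A cells. The shKDM1A libraries were below the shGFP libraries in both conditions, without overlap. Hdac2 fell by 0.11 (SE 0.023, limma adjusted p = 0.00081) without IL4 and by 0.12 (SE 0.023, limma adjusted p = 0.00047) with IL4, and as a percentage it fell by 7.62% and fell by 8.04%.

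Hdac1 (NM_008228, chr4:129193348-129219890, minus strand) had values of 10.90, 10.93, 10.94 and 10.92 in shGFP cells and 10.98, 11.00, 10.96 and 11.06 in shKDM1A cells. With IL4 they were 10.95, 11.01, 10.89 and 10.93 in shGFP cells and 11.19, 11.08, 11.09 and 11.14 in shKDM1A cells. Again the groups did not overlap, but here the shKDM1A libraries were the higher ones. Hdac1 rose by 0.18 (SE 0.029, limma adjusted p = 0.00011) with IL4, or 13.3%. Without IL4 it was higher by 0.083 (SE 0.029, limma adjusted p = 0.034), or 5.90%. That smaller call was lost with no filter on low values (adjusted p = 0.079) and without shGFP library 1, 2 or 4 or shKDM1A library 2 or 4 (differences of 0.063 to 0.085, adjusted p = 0.055 to 0.12).

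Taking Hdac1 minus Hdac2 within each library removes what the 2 genes share in a library. The balance was -0.597 ± 0.023 (SD, n = 4) in shGFP cells, -0.582 ± 0.044 in shGFP cells with IL4, -0.400 ± 0.017 in shKDM1A cells and -0.280 ± 0.030 in shKDM1A cells with IL4. Hdac2 was the higher gene in every library, and the gap was narrowest in shKDM1A cells with IL4. Per length, Hdac1 stood at 0.672 of Hdac2 in shGFP cells and at 0.837 of it in shKDM1A cells with IL4. The balance differed by 0.20 between shKDM1A and shGFP cells without IL4 and by 0.30 with IL4, with no overlap between groups (two-sided exact permutation test, p = 0.0286 each, 0.0571 after adjustment over 8 tests). IL4 shifted it by 0.12 in shKDM1A cells (exact permutation p = 0.0286, adjusted 0.0571) and by 0.015 in shGFP cells (exact permutation p = 0.543, adjusted 0.686). With 4 libraries against 4, 0.0286 is the smallest p this test allows, and none of the 8 tests passed after adjustment. The plot of paralogue balances shows the 8 shKDM1A libraries above the 8 shGFP libraries.

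**Figure D2:**
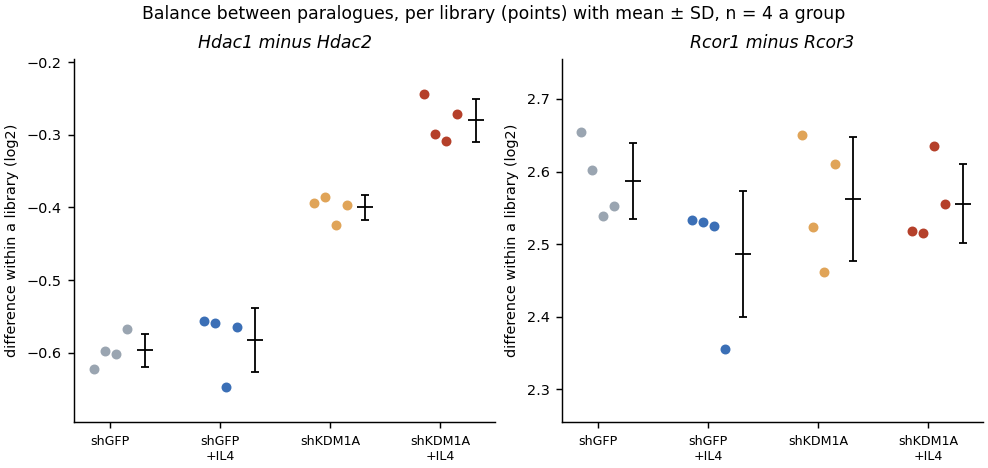
Difference within a library (log2, vertical axis) between Hdac1 and Hdac2 (left) and between Rcor1 and Rcor3 (right) in the 4 groups, with 1 point per library and bars for mean ± SD (n = 4). Hdac1 minus Hdac2 goes from -0.597 in shGFP cells to -0.280 in shKDM1A cells with IL4, while the Rcor1 minus Rcor3 groups lie between 2.49 and 2.59 in mean.

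The scaffold genes Rcor1 and Rcor3 were lower in shKDM1A cells with IL4. Rcor1 (NM_198023, chr12:112277577-112354113, plus strand) had values of 10.80, 10.86, 10.80 and 10.79 in shGFP cells, 10.80, 10.84, 10.78 and 10.743 with IL4, 10.82, 10.83, 10.77 and 10.85 in shKDM1A cells, and 10.58, 10.735, 10.69 and 10.72 in shKDM1A cells with IL4. The last group lies below each of the other 3. With IL4, Rcor1 was lower by 0.11 (SE 0.032, limma adjusted p = 0.011) in shKDM1A than in shGFP cells. Without IL4 the difference was 0.007 (95% interval -0.062 to 0.075, limma adjusted p = 0.90). IL4 lowered Rcor1 in shKDM1A cells, where it fell by 0.14 (SE 0.032, limma adjusted p = 0.0036), and in shGFP cells the difference was -0.022 (limma adjusted p = 0.69).

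Rcor3 (NM_001346740, chr1:193922429-193961922, minus strand) had values of 8.14, 8.26, 8.26 and 8.24 in shGFP cells, 8.27, 8.31, 8.26 and 8.39 with IL4, 8.17, 8.31, 8.31 and 8.24 in shKDM1A cells, and 8.06, 8.22, 8.05 and 8.17 in shKDM1A cells with IL4. With IL4 the shKDM1A libraries were all below the shGFP libraries, and Rcor3 fell by 0.18 (SE 0.043, limma adjusted p = 0.0032), and as a percentage it fell by 11.8%. Without IL4 the groups overlapped (0.032, 95% interval -0.060 to 0.124, limma adjusted p = 0.61), and the difference was 0.005 without shGFP library 1 and 0.061 without shKDM1A library 1. In shKDM1A cells IL4 lowered Rcor3, which fell by 0.13 (SE 0.043, limma adjusted p = 0.030), although the groups overlapped. That call was lost with no filter (adjusted p = 0.099), with only those 2 groups in the model (0.064), after quantile normalization (0.093), and without shKDM1A library 2 or 3 or shKDM1A IL4 library 1 or 3 (changes of -0.117 to -0.109, adjusted p = 0.090 to 0.099). Of the 3566 exonic bases of Rcor3 in the gencode annotation, 674 (18.9%) are also exonic in the lincRNA Gm16621 on the opposite strand, which has no row of its own. Tags were counted on both strands, so reads of the pair cannot be told apart, and no other subunit shared exonic bases with another annotated gene.

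The Rcor1 minus Rcor3 balance was 2.59 ± 0.053 (SD, n = 4) in shGFP cells, 2.49 ± 0.087 with IL4, 2.56 ± 0.085 in shKDM1A cells and 2.56 ± 0.055 in shKDM1A cells with IL4. It was lower by 0.102 with IL4 in shGFP cells (two-sided exact permutation test, p = 0.0286, adjusted 0.0571), where the groups did not overlap. Without shGFP IL4 library 4, the lowest of its group (2.355), the difference was -0.058. In the other 3 comparisons the groups overlapped and the differences were -0.026, 0.070 and -0.006 (exact permutation p = 0.286 to 0.857). The second of these, between the lines with IL4, was 0.026 without shGFP IL4 library 4 and 0.044 without shKDM1A IL4 library 3.

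Of the associated zinc finger genes, Zmym2 was the subunit with the largest decrease after Kdm1a itself. Zmym2 (NM_001360643, chr14:57505680-57581195, plus strand) had values of 9.70, 9.72, 9.78 and 9.69 in shGFP cells and 9.56, 9.53, 9.60 and 9.58 in shKDM1A cells. With IL4 its values were 9.76, 9.76, 9.73 and 9.68 in shGFP cells and 9.51, 9.56, 9.43 and 9.57 in shKDM1A cells. All 8 shKDM1A libraries were below all 8 shGFP libraries. Zmym2 fell by 0.16 (SE 0.030, limma adjusted p = 0.00057) without IL4 and by 0.21 (SE 0.030, limma adjusted p = 3.5e-05) with IL4, and as a percentage it fell by 10.4% and fell by 13.7%.

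Its paralogue Zmym3 (NM_019831, chrX:98599723-98615561, minus strand) followed another pattern. Its values were 8.85, 8.89, 8.85 and 8.85 in shGFP cells, 9.01, 8.925, 9.06 and 8.97 with IL4, 8.90, 8.74, 8.85 and 8.90 in shKDM1A cells, and 8.83, 8.80, 8.82 and 8.920 in shKDM1A cells with IL4. The shGFP libraries with IL4 were above all others, by a margin of only 0.005 over the highest shKDM1A IL4 library. IL4 raised Zmym3 by 0.13 (SE 0.037, limma adjusted p = 0.015) in shGFP cells, a call lost without shGFP IL4 library 3 (0.105, adjusted p = 0.057) and at an adjusted p of 0.050 with no filter. In shKDM1A cells the difference was -0.007 (95% interval -0.084 to 0.071, limma adjusted p = 0.93). Zmym3 was lower in shKDM1A than in shGFP cells with IL4, where it fell by 0.15 (SE 0.037, limma adjusted p = 0.0044), and without IL4 the difference was -0.011 (limma adjusted p = 0.85).

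**Figure D3:**
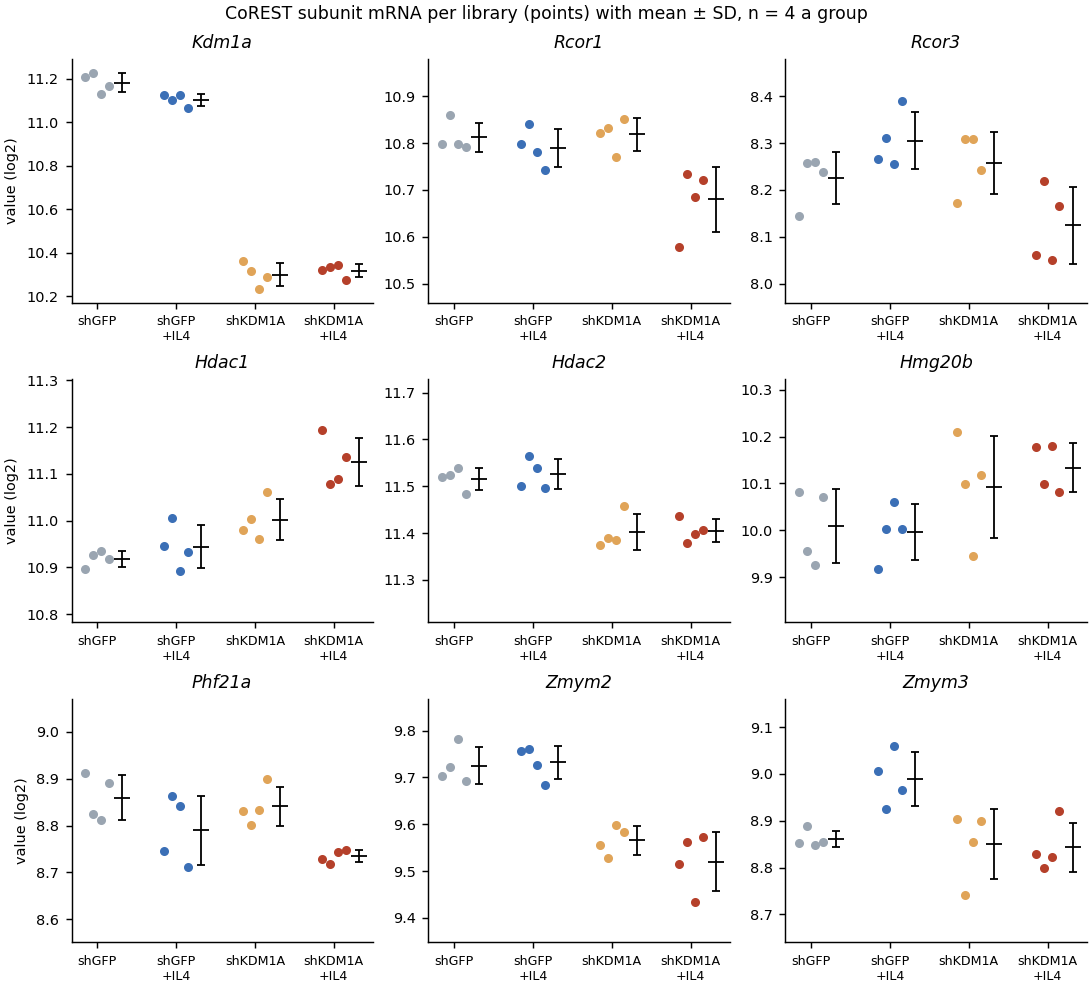
Value (log2, vertical axis) of each subunit gene in the 4 groups, with 1 point per library and black bars for mean ± SD (n = 4); the Kdm1a panel spans a wider range than the other 8, which share one span. Kdm1a, Hdac2 and Zmym2 are lower in all 8 shKDM1A libraries than in all 8 shGFP libraries, and Rcor1 is lowest in shKDM1A cells with IL4.

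Hmg20b, the HMG box subunit (NM_010440, chr10:80808791-80813172, minus strand), had the largest SE of the 9. Its values were 10.08, 9.96, 9.93 and 10.07 in shGFP cells and 10.21, 10.10, 9.95 and 10.12 in shKDM1A cells, with overlap. With IL4 they were 9.92, 10.00, 10.06 and 10.00 in shGFP cells and 10.18, 10.10, 10.18 and 10.08 in shKDM1A cells, without overlap. Hmg20b rose by 0.14 (SE 0.050, limma adjusted p = 0.037) with IL4, and without IL4 the difference was 0.084 (95% interval -0.023 to 0.191, limma adjusted p = 0.21). The first call was lost with no filter (adjusted p = 0.11), after quantile normalization (0.065), and without shGFP IL4 library 1, 2 or 4 or shKDM1A IL4 library 1 or 3 (differences of 0.113 to 0.141, adjusted p = 0.061 to 0.11). Without shKDM1A library 3, the second became a call (0.133, adjusted p = 0.030), and without shKDM1A library 1 the difference was 0.045.

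Phf21a, the histone reader (NM_001362830, chr2:92024339-92204823, plus strand), did not pass in either comparison of shKDM1A with shGFP cells (-0.019, 95% interval -0.090 to 0.052, and -0.056, 95% interval -0.126 to 0.015). Leaving out 1 library moved the first from -0.038 (without shKDM1A library 4) to -0.002 (without shGFP library 1), and the second from -0.082 to -0.031 (without shGFP IL4 library 4 or 2). Its values were 8.91, 8.83, 8.81 and 8.89 in shGFP cells, 8.75, 8.86, 8.84 and 8.71 with IL4, 8.83, 8.80, 8.83 and 8.90 in shKDM1A cells, and 8.73, 8.72, 8.74 and 8.75 in shKDM1A cells with IL4. IL4 lowered it in shKDM1A cells, where the groups did not overlap and Phf21a fell by 0.11 (SE 0.033, limma adjusted p = 0.025). In shGFP cells the difference was -0.070 (limma adjusted p = 0.14), and -0.094 or -0.044 without shGFP IL4 library 2 or 4. The call was lost with no filter (adjusted p = 0.070), after quantile normalization (0.071), and without shKDM1A library 4 or shKDM1A IL4 library 1 or 2 (changes of -0.105 to -0.088, adjusted p = 0.051 to 0.085).

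With IL4 present, 8 of the 9 subunits thus passed the test between shKDM1A and shGFP cells, beside 40.7% of all tested genes. Kdm1a, which is among them and in the median below, is the hairpin's target, so its decrease was set by the design. The 6 lower were Kdm1a, Rcor1, Rcor3, Hdac2, Zmym2 and Zmym3, beside 19.8% of all genes lower, and the 2 higher were Hdac1 and Hmg20b, beside 20.9% higher. The median difference over the 9 was -0.121, beside -0.002 over all genes. Apart from Kdm1a, the differences that passed were 0.11 to 0.21 in size. They are small beside that of Kdm1a, and the median absolute difference over all tested genes was 0.067.

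The response to IL4 was compared within each line. In shGFP cells 2 of 9 passed, beside 26.9% of all genes, with Zmym3 higher (beside 13.1% of all genes) and Kdm1a lower (beside 13.7%). The decrease of Kdm1a, which fell by 0.079 (SE 0.028, limma adjusted p = 0.048), kept its direction under every alternative but was lost under 17 of 23 of them. These included no filter (0.11), the stricter filter (0.056), both scalings (0.057 and 0.061) and the trended prior (0.054). They also included leaving out shGFP library 1, 2 or 4, any shGFP IL4 library, shKDM1A library 2 or 4, or shKDM1A IL4 library 1, 2 or 3 (changes of -0.086 to -0.064, adjusted p = 0.052 to 0.14). In shKDM1A cells 4 of 9 passed, beside 27.1% of all genes, with Rcor1, Rcor3 and Phf21a lower (beside 13.5% of all genes) and Hdac1 higher (beside 13.6%). Hdac1 rose there by 0.12 (SE 0.029, limma adjusted p = 0.0045), and its difference in shGFP cells was 0.025 (limma adjusted p = 0.61).

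**Figure D4:**
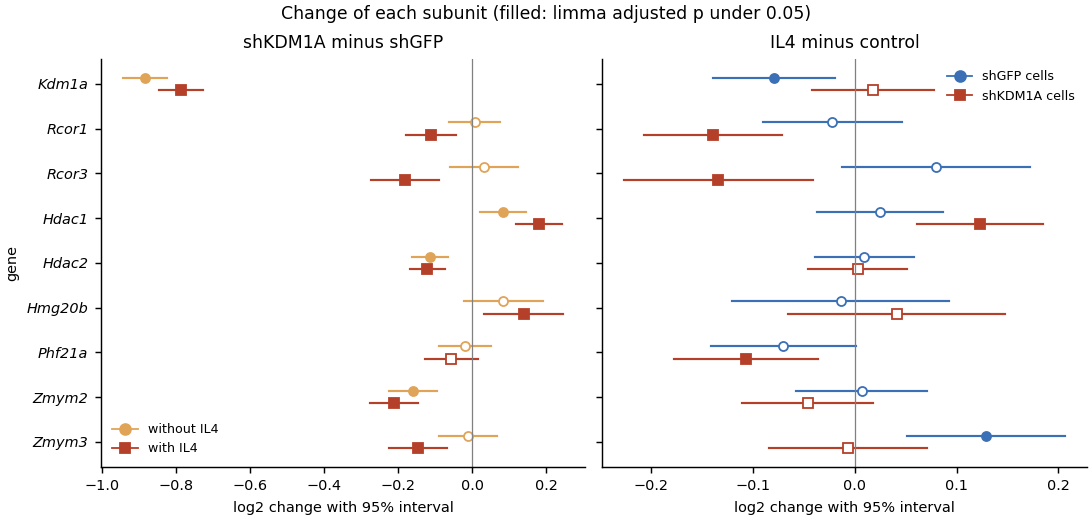
Difference in log2 value (horizontal axis) of each subunit gene (rows), with 95% intervals, between shKDM1A and shGFP cells (left) and between IL4 and control (right); symbols are filled where limma's adjusted p was under 0.05. With IL4, 8 of 9 subunits, the targeted Kdm1a among them, are filled on the left, and on the right 2 are filled for shGFP cells and 4 for shKDM1A cells.

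Whether a subunit responded differently to IL4 in the 2 lines was tested directly as the difference between the responses. None of the 9 subunits passed with limma (0 of 9, beside 6.13% of all tested genes, 3.56% higher and 2.57% lower). At an unadjusted p under 0.05 in limma there were 5 (Kdm1a, Rcor1, Rcor3, Hdac1 and Zmym3). The share of all genes at that unadjusted threshold was not computed, so this count has nothing to stand beside. Rcor3 came nearest (difference in response, shKDM1A minus shGFP, of -0.213, SE 0.061, limma adjusted p = 0.051). It passed with the stricter filter (adjusted p = 0.041), with the trended prior (0.038), with the replicate number as a block (0.022), and without shKDM1A library 1 (-0.242, 0.029) or shKDM1A IL4 library 2 (-0.245, 0.020) or 4 (-0.227, 0.043). Zmym3 (-0.135, SE 0.052, limma adjusted p = 0.13) passed without shKDM1A library 2 (-0.171, adjusted p = 0.042). The differences for Rcor1 (-0.117, limma adjusted p = 0.14), Hdac1 (0.098, limma adjusted p = 0.17) and Kdm1a (0.098, limma adjusted p = 0.16) did not pass under any alternative.

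Across the 16 libraries, the subunit values most like Kdm1a were those of Hdac2 (Pearson r = 0.90) and Zmym2 (0.89), and the least like it were those of Hdac1 (-0.75) and Hmg20b (-0.58). These correlations describe 16 libraries that share 4 groups and 2 lines, and were not computed within groups. Over all tested genes, the 5 most like Kdm1a were Sorl1, Tmem176a, Plxnc1, Plxnd1 and Htr1b (r = 0.990 to 0.995). The 5 most opposite were Zfp365, Nptn, Hmox1, Igsf3 and Oasl2 (r = -0.996 to -0.993).

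Genes related to the subunits were examined by list, and the counts stand beside 19.7% of all tested genes higher and 18.4% lower without IL4, and 20.9% higher and 19.8% lower with IL4. For the response to IL4 these shares were 13.1% and 13.7% in shGFP cells and 13.6% and 13.5% in shKDM1A cells. Of 9 paralogues of the subunits, 0 were higher and 2 lower in shKDM1A cells without IL4 (limma, 1 higher and 2 lower at an unadjusted p under 0.05), with a median of -0.017 beside -0.003 over all genes. Kdm1b, the only paralogue of Kdm1a, fell by 0.11 (limma adjusted p = 0.0013) without IL4, and Zmym5 fell by 0.13 (0.011). With IL4, 1 paralogue was higher and 2 lower (median -0.036 beside -0.002), and Rcor2, the other scaffold gene, rose by 0.15 (limma adjusted p = 0.0030). Zmym4 fell by 0.12 (0.019) and Zmym5 by 0.12 (0.025) in that comparison. IL4 called 1 of the 9, Rcor2, in shGFP cells (-0.113, limma adjusted p = 0.028) and 0 in shKDM1A cells, where 1 was higher and 0 lower at an unadjusted p under 0.05 in limma (medians 0.021 and 0.016).

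Of 12 partners and recruiting factors, 10 were tested. Without IL4, 3 were higher (beside 19.7% of all tested genes) and 4 lower (beside 18.4%), with a median of -0.037. Ctbp1 and Ctbp2 encode corepressors that bind CoREST, and fell by 0.16 (limma adjusted p = 0.00012) and by 0.23 (limma adjusted p = 0.00010). Tal1, a blood transcription factor, fell by 0.30 (limma adjusted p = 1.5e-06). Gfi1b rose by 0.17 (0.00020) and Zfp217 by 0.11 (0.022). With IL4, 2 were higher (beside 20.9% of all genes) and 3 lower (beside 19.8%), with a median of -0.014. The calls were Tal1 at -0.313, Ctbp2 at -0.220, Snai2 at -0.154, Gfi1b at 0.117 and Zeb1 at 0.068. Rest, the neuronal repressor, had differences of 0.025 and 0.002 (limma adjusted p = 0.80 and 0.98). IL4 raised Gse1, whose protein joins CoREST, by 0.21 (limma adjusted p = 0.0028) in shGFP and by 0.16 (0.015) in shKDM1A cells, with Gfi1b (0.104) the only other call in the former and Ctbp1 (0.130) in the latter.

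Of 20 neuronal genes repressed through REST and CoREST, 19 were in the table and 9 passed the filter, and their levels above it were not examined. Of these 9, 4 were higher (beside 19.7% of all tested genes) and 0 lower (beside 18.4%) in shKDM1A cells without IL4. At an unadjusted p under 0.05 in limma, 4 were higher and 0 lower as well. The median was 0.030 beside -0.003 over all genes. Syn1 rose by 0.27 (SE 0.036, limma adjusted p = 1.5e-05), Syp by 0.20 (0.00047), Vgf by 0.14 (0.00016) and Unc13a by 0.13 (0.0047). Syn1 and Syp encode synaptic vesicle proteins, Vgf a neuropeptide precursor and Unc13a a protein that primes synaptic vesicles. With IL4, 5 were higher (Syn1 0.227, Syp 0.177, Rab3a 0.138, Vgf 0.128 and Unc13a 0.086) and Chrnb2 lower (-0.168). Of all tested genes, 20.9% were higher and 19.8% lower there, and the median of the list was 0.086 beside -0.002. IL4 called 1 of the 9 in each line, Rab3a (-0.120, beside 13.7% of all genes lower) in shGFP cells and Chrnb2 (-0.085, beside 13.5%) in shKDM1A cells.

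**Figure D5:**
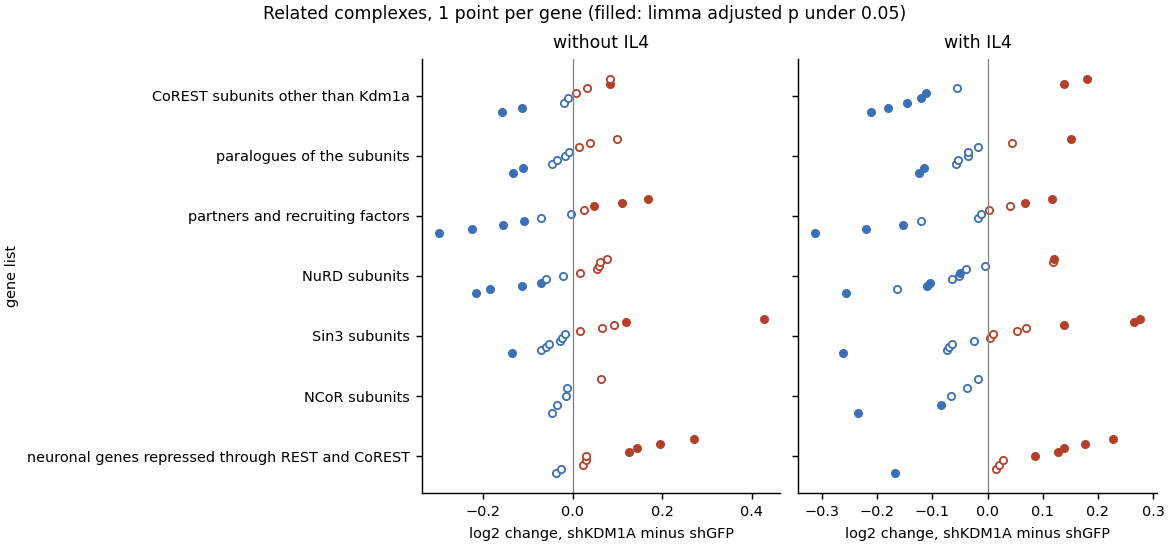
Difference in log2 value between shKDM1A and shGFP cells (horizontal axis) of each tested gene (points) of the lists in rows, without IL4 (left) and with IL4 (right); filled points had a limma adjusted p under 0.05, red is higher and blue lower in shKDM1A cells. Kdm1a is left out of the top row, and Sin3a is the point farthest to the right without IL4.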

How the data were processed

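RNA-seq of 16 libraries of RAW cells was used, in 4 groups of 4 assigned from the labels. The study's methods state that experiments had biological replicates, and the labels do not say which libraries of a group came from separate cultures, so p-values measure the spread between these libraries, which may be partly technical. Per the file headers and the study's methods, the authors aligned reads to mm9 with HISAT2 and Bowtie2, counted tags on both strands over RefSeq exons with HOMER, kept 1 row per gene, and ran DESeq2 through HOMER. Tool versions are not given in the sources used here. The values deposited per library are on a log2 scale, written with decimal commas and moderated for low expression by a transformation that is not named, so they are not counts and differences of low genes are understated. The deposited columns of the authors' comparisons (log2 fold changes, p-values), which are all that the BMDM table holds, were not used, and other assays of the series were not analysed here.

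Group means were fitted with limma 3.58.1 in R 4.3.3 (lmFit, eBayes) to the 12905 of 25094 genes that reached 1 in 4 or more libraries, with 12 residual degrees of freedom. P-values were adjusted by Benjamini-Hochberg within each of 5 comparisons, over all genes, with a threshold of 0.05. For counts at an unadjusted p under 0.05, the share over all genes was not computed. The comparisons of the lines and of IL4 share libraries. Levels per length subtract the log2 of the transcript length in kilobases. Balances were tested by two-sided exact permutation tests (scipy 1.17.1), adjusted over 8. Windows of 250 bases were read from NCBIM37 upstream of the outermost start of a gene in the table or in gencode within 1000 bases. Alternatives were no filter, a value of at least 5, only the groups compared, a replicate block, each library left out, median centring, quantile normalization, and a trended robust prior. The subunits and lists were chosen with earlier results of these data known. Named were all subunits and, per list and comparison, up to 5 called genes by size of change. Overlap with other genes was examined for the subunits alone, and levels and alternatives were not examined for the genes of the lists. Some genes of the lists are not reported here and were left out of their counts. The limma step was tested on simulated data.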

Additional observations from a re-analysis of the deposited data

Results flagged for a closer look

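In the 44 groups of 4 values examined (9 subunits and 2 balances in 4 groups), 4 had 1 library far from the other 3, and chance flags about 1 in 20. Library 2 of the untreated shGFP cells was highest for Rcor1 (10.86) and for Zmym3 (8.89). In shGFP cells with IL4, 1 library had the lowest Hdac1 minus Hdac2 balance (-0.648), and 1 the lowest Rcor1 minus Rcor3 balance (2.355). Without library 2 of the shGFP cells, Zmym3 was still called for IL4 in shGFP cells, and no call for Rcor1 was lost.

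The response to IL4 differed between shKDM1A and shGFP cells by the interaction test for 4 of the 55 tested genes of the related lists, beside 6.13% of all tested genes. The difference was 0.145 for Ctbp1 (limma adjusted p = 0.027), 0.20 for Sap30 (0.0045), -0.180 for Chd3 (0.032) and -0.150 for Sin3a (0.024).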

How the results depend on the processing

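Of 1026 values of single subunits under alternatives, 943 kept their direction and side of the threshold, 44 lost a call, 8 gained one and 31 changed sign, none of these a call. Apart from single libraries left out, the sign changed for Zmym3 with IL4 in shKDM1A cells (0.003 with median centring, 0.011 with quantile normalization), for Hdac2 in the difference of IL4 responses (0.003, median centring) and with IL4 in shKDM1A cells (-0.014, quantile normalization), and for Rcor1 without IL4 (-0.013, quantile normalization).
The number of subunits called for IL4 in shGFP cells was 0 with no filter and 1 with the stricter filter, median centring, quantile normalization or the trended prior, against 2. For IL4 in shKDM1A cells it was 2 with no filter and 2 with quantile normalization, against 4. For the difference in IL4 response it was 1 with the stricter filter, the replicate block or the trended prior, against 0, and with no filter 431 genes were called in all, against 791.
With single libraries left out, these 3 numbers of subunits ranged from 0 to 2, from 2 to 4 and from 0 to 1. Over the same fits, subunits that changed sign ranged as follows: Hdac2 with IL4 in shGFP cells -0.003 to 0.019, in shKDM1A cells -0.007 to 0.022 and in the difference -0.017 to 0.012; Hmg20b with IL4 -0.041 to 0.013 in shGFP and -0.007 to 0.081 in shKDM1A cells. Kdm1a with IL4 in shKDM1A cells ranged from -0.004 to 0.039, Zmym2 in shGFP cells from -0.004 to 0.026, and Zmym3 in shKDM1A cells from -0.043 to 0.011. In shKDM1A against shGFP cells without IL4, Rcor1 ranged from -0.005 to 0.023 and Zmym3 from -0.029 to 0.025. With IL4 in shGFP cells, Hdac1 ranged from 0.005 to 0.042 and Rcor1 from -0.039 to -0.006. The Rcor1 minus Rcor3 balance ranged from -0.039 to 0.024 with IL4 in shKDM1A cells and from -0.055 to 0.008 without IL4 between the lines, and was 0.037 with IL4 between the lines after quantile normalization, against 0.070. The Hdac1 minus Hdac2 balance with IL4 in shGFP cells ranged from 0.007 to 0.038, against 0.015. The causes were not tested.
Correlations between same-numbered libraries were -0.092 to 0.273, and 8 of 16 libraries, each with 4 candidates, correlated best with their own number. Weak pairing by replicate number is therefore possible, and it was not tested. The replicate block called 4, 8, 2 and 4 subunits in the 2 comparisons of the lines and the 2 of IL4, and of the single subunits it changed the call of Rcor3 in the difference of IL4 responses alone. For the balances, paired differences were the same in size, and the exact sign-flip test with 4 pairs cannot go below 0.125. Leaving out a library, the permutation test cannot pass either. Moderated values at 4 libraries a group limit what could be seen. Simulated data for shKDM1A against shGFP without IL4 had 12905 genes, with 50 changed at each size. In them, 36% of changes of 0.1, 84% of 0.2 and 100% of 0.5 were recovered. The real comparison called 4927 genes, so its adjusted threshold was less strict than in the simulation. These shares are therefore likely too low for the real comparison.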

Other observations

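The corepressor complexes that share HDAC1 and HDAC2 with CoREST were counted in the same fits, where 19.7% of all tested genes were higher and 18.4% lower in shKDM1A cells without IL4, 20.9% and 19.8% with IL4, and IL4 raised 13.1% and lowered 13.7% in shGFP cells and raised 13.6% and lowered 13.5% in shKDM1A cells. Of the 11 NuRD subunits, 0 were higher and 4 lower in shKDM1A than in shGFP cells without IL4 (limma, 2 higher and 5 lower at an unadjusted p under 0.05, median -0.022 beside -0.003 over all genes). The 4 lower were Chd4 (-0.216, SE 0.046), the remodelling ATPase, with Mbd3 (-0.184), Mta2 (-0.113) and Rbbp7 (-0.070). With IL4, Rbbp4 (0.121) was higher and Chd4 (-0.257), Mta2 (-0.109), Chd3 (-0.104) and Rbbp7 (-0.050) lower (median -0.052 beside -0.002). IL4 raised 4 of 11 in shGFP cells (Gatad2b 0.184, Mta3 0.176, Chd4 0.140 and Chd3 0.096) and 2 of 11 in shKDM1A cells (Mbd3 0.152 and Mta3 0.107).

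Of the 12 Sin3 subunits, 2 were higher and 1 lower without IL4 (median -0.021). The scaffold gene Sin3a rose by 0.43 (SE 0.026, limma adjusted p = 1.2e-09) and its paralogue Sin3b by 0.12 (limma adjusted p = 0.036), and Arid4a fell by 0.14 (limma adjusted p = 0.039). With IL4, Sin3a (0.277), Sap30 (0.265) and Sin3b (0.139) were higher and Arid4a (-0.262) lower (median 0.008). IL4 raised Sin3a (0.159) and lowered Sap30 (-0.082) and Suds3 (-0.071) in shGFP cells, and in shKDM1A cells it raised Sap18 (0.121) and Sap30 (0.118) and lowered Arid4b (-0.134).

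Of the 5 NCoR subunits counted, 0 passed in limma without IL4 (median -0.015), while with IL4 2 were lower, Ncor1 (-0.235, SE 0.056, limma adjusted p = 0.0031) and Tbl1xr1 (-0.084, 0.049), with a median of -0.067. IL4 raised Tbl1xr1 (0.128) and Gps2 (0.118) in shGFP cells and called 0 of 5 in shKDM1A cells (medians 0.088 and 0.016). The difference between the IL4 responses called 0 of the 5 (median -0.072), beside 6.13% of all tested genes. At an unadjusted p under 0.05 in limma, 0 of the 5 passed without IL4, 1 was higher and 1 lower with IL4 in shKDM1A cells, and 1 was lower in the difference. The shares of all genes at this unadjusted threshold were not computed.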
